A study of Mus musculus with 6 samples.

Results

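The 10 genes described here make, break down and regulate the polyamines, and each was found by its name among the 43074 genes of the tables: Smox, Sat1, Odc1, Amd1, Srm, Sms, Paox, Azin1, Oaz1 and Oaz2. The set was chosen by the values of Smox, which had drawn attention in an earlier reading of the comparison of wild type (WT) with StarD7 mKO muscle. The other members were added for their place in the pathway. That comparison is therefore given for the 10 genes as a description. No p-value is given for any of them, and counts of members past a threshold, and intervals, are printed without being read as evidence. RNA was sequenced from soleus, a postural muscle of the mouse hindlimb, in 3 WT and 3 mKO libraries, where mKO is the submitters' name for a knockout of Stard7. Stard7 encodes a lipid transfer protein that carries phosphatidylcholine to mitochondria. The study set out to find genes whose RNA differs between the control and the knockout muscle. The design text counts 3 mice per group. The age, sex and strain of the mice and the allele or driver behind the knockout are not given in the sources used here.

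Polyamines are small, positively charged amines that bind RNA and other acidic molecules and are needed for growth and translation. Ornithine is decarboxylated to putrescine, and aminopropyl groups taken from decarboxylated S-adenosylmethionine extend putrescine to spermidine and spermidine to spermine. Breakdown runs the other way, either by direct oxidation of spermine or by acetylation followed by oxidation. In skeletal muscle, RNA of spermine oxidase is known to fall in several kinds of atrophy.

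Reads recovered from the tables came to between 42928382 and 51287715 per library. Stard7, the targeted gene, read 87.5, 95.4 and 94.99 TPM (transcripts in every 1000000 of a library, corrected for gene length) in WT replicates 1, 2 and 3, and 21.8, 21.3 and 34.6 in mKO replicates 1, 2 and 3 (log2 difference −1.83, SE 0.16, limma adjusted p = 0.00585). Over the alternatives its limma adjusted p ranged from 1.58e-05 to 0.0858, and it missed the threshold when WT replicate 2 was dropped (0.0703) or when low genes were all kept (0.0858). Muscle identity was checked on Acta1, skeletal actin, at 37200 to 40601 TPM in WT and 33503 to 35547 TPM in mKO. It was also checked on Myh7, the slow myosin heavy chain, at 2688 to 3532 TPM in WT and 2889 to 4281 TPM in mKO. Both genes were abundant in every library, and the groups were apart for Acta1, with mKO lower. Mitochondrially encoded genes took 42.1% to 45.1% of TPM in WT and 46.8% to 48.9% in mKO, which lowers the TPM of other genes, since TPM has a fixed sum. All 10 polyamine genes passed the filter on low values, at least 1 TPM in at least 3 libraries.

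Smox encodes spermine oxidase, which turns spermine straight into spermidine and releases hydrogen peroxide and an aldehyde. Its WT values were 9.48, 10.7 and 10.2 TPM, and its mKO values 5.70, 7.01 and 5.80 TPM. Every mKO library lay below every WT library, and the highest mKO value was that of replicate 2. Its mean was 10.1 ± 0.624 TPM in WT and 6.17 ± 0.726 TPM in mKO (SD, n = 3 each), so that mKO held 60.8% of the WT level, a difference of −0.64 (SE 0.09) in log2(TPM + 1). Between 452 and 874 reads lay behind each value, so counting error was at most 4.70%. In bulk muscle, fewer cells of a type and less RNA per cell cannot be told apart.

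Amd1 encodes S-adenosylmethionine decarboxylase, which supplies the aminopropyl donor for both steps of synthesis beyond putrescine. Its values were 60.4, 61.4 and 66.8 TPM in WT and 43.8, 43.6 and 47.7 TPM in mKO. The groups were apart here too, and replicate 3 was the highest of each group. The mean went from 62.9 ± 3.39 TPM in WT to 45.0 ± 2.31 TPM in mKO, 71.6% of WT, which is a difference of −0.47 (SE 0.06) in log2(TPM + 1).

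Mice carry a near-identical copy of Amd1, Amd2, and the coding bases of the 2 genes are 99.9% identical in the GENCODE M21 annotation, so reads could be split between them. Amd2 was listed at 2.67, 2.63 and 2.81 TPM in WT and at 1.35, 2.61 and 1.52 TPM in mKO. Replicate 2 of mKO was thus close to WT for Amd2, while Amd1 in the same library was not. The Amd2 groups were still apart, by a narrow margin at that library. The mean of Amd2 was 2.70 ± 0.0935 TPM in WT against 1.83 ± 0.685 in mKO, 67.6% of WT. Limma did not call this difference of −0.41 (SE 0.16).

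Odc1 encodes ornithine decarboxylase, the first enzyme of the pathway, which is controlled mostly at the level of its protein. It stood at 57.6, 50.4 and 47.1 TPM in WT and at 49.3, 52.3 and 53.5 TPM in mKO. The mKO libraries lay within the range of the WT libraries. The means were 51.7 ± 5.36 and 51.7 ± 2.13 TPM (difference 0.00, SE 0.08). In WT Amd1 was above Odc1 in each library, and in mKO Odc1 was above Amd1 in each library.

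Srm and Sms encode spermidine synthase and spermine synthase, which add the aminopropyl groups. Srm stood at 11.3, 10.8 and 10.4 TPM in WT and at 10.5, 9.998 and 9.54 TPM in mKO. Sms stood at 20.8, 20.4 and 18.7 TPM in WT and at 18.7, 19.2 and 18.2 TPM in mKO. The groups overlapped for both genes, by a small margin: only the lowest WT library reached down into the mKO range. Their differences were −0.10 (SE 0.07) and −0.09 (SE 0.06).

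**Figure D1:**
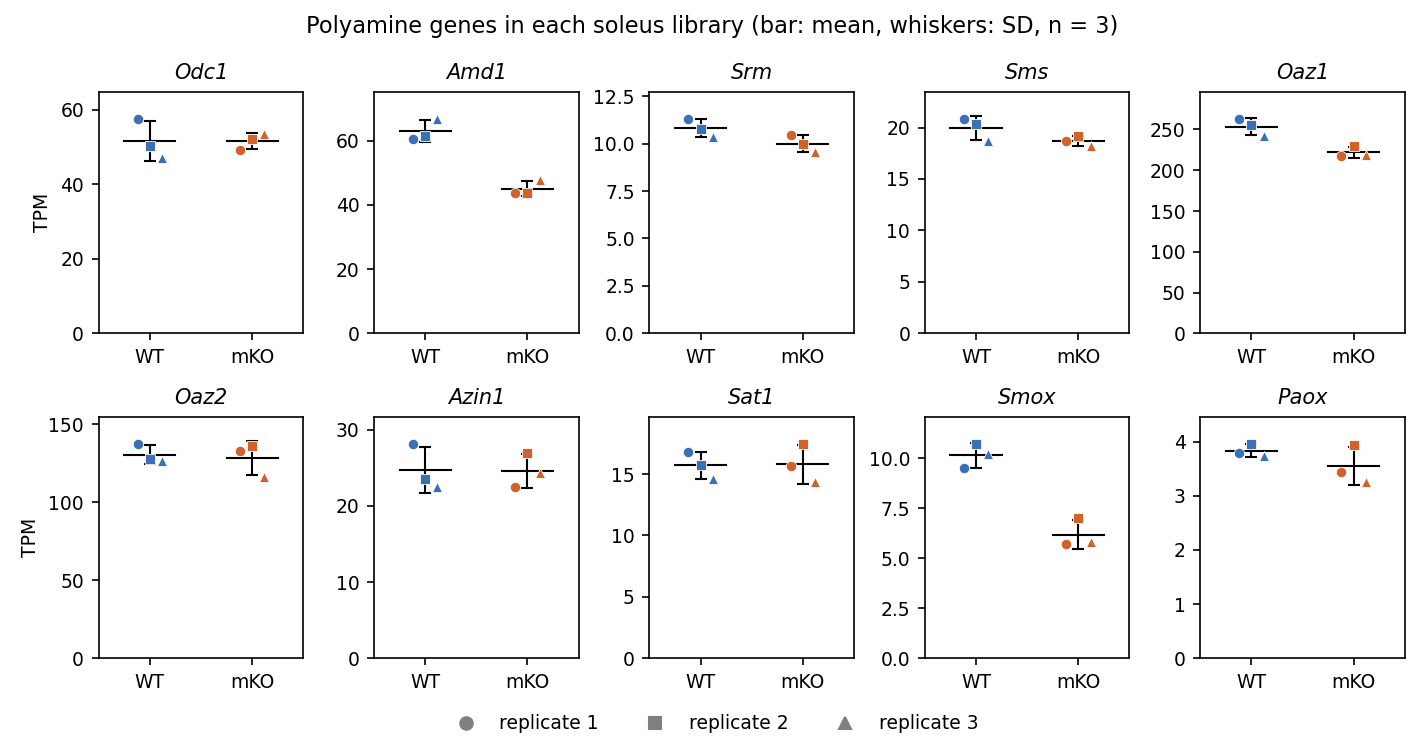
TPM of each of the 10 genes in the 3 WT and 3 mKO libraries; points are libraries (circle, square and triangle for replicates 1, 2 and 3), horizontal bars are means and whiskers are SDs (n = 3), on linear axes that start at 0. Smox, Amd1 and Oaz1 have no overlap between the groups, with mKO means at 60.8%, 71.6% and 87.6% of WT, and the other 7 genes overlap.

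Breakdown by acetylation starts with Sat1, spermidine/spermine acetyltransferase, and ends with Paox, the peroxisomal oxidase of acetylated polyamines. Sat1 stood at 16.8, 15.7 and 14.6 TPM in WT and at 15.6, 17.5 and 14.3 TPM in mKO, with both the highest and the lowest value in mKO. Its means were 15.7 ± 1.10 and 15.8 ± 1.59 TPM (difference 0.01, SE 0.09). Paox was the lowest of the 10 genes in every library, at 3.79, 3.96 and 3.73 TPM in WT and at 3.44, 3.93 and 3.26 TPM in mKO. Replicate 2 of mKO lay inside the WT range for Paox, and the other mKO libraries below it (difference −0.09, SE 0.09). Paox and Smox are related oxidases. The proteins of their longest coding sequences in GENCODE M21 share 212 identical residues over 599 alignment columns, gaps included (35.4%).

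Ornithine decarboxylase protein is bound by antizymes, which send it to the proteasome, and antizyme inhibitor, a relative of the enzyme without its activity, takes the antizyme away. Azin1, the inhibitor, shares 49.0% of aligned residues with Odc1. Antizyme protein is made only when the ribosome slips forward by a base at the end of a short first reading frame, a step that polyamines promote, so the RNA level of an antizyme gene does not measure its protein. The slip sites of the transcripts are printed because they are the point at which polyamines act on these 2 members. In both, the letters in capitals are the last codon of the first frame and its stop codon, and the annotation leaves out the first base of that stop to join the frames.
Oaz1: cctcggtggtgcTCCTGAtgtccctca
Oaz2: cctctgtggtgcTCCTGAtgcccctca
Of these 27 bases 2 differ between the genes, neither in capitals. The slip comes after codon 68 of the annotated Oaz1 frame and after codon 32 of that of Oaz2.

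Oaz1 was the most abundant of the 10 genes per length, at 263, 255 and 242 TPM in WT and at 218, 230 and 218 TPM in mKO. All 3 mKO libraries lay below the WT libraries (253.5 ± 10.5 against 222 ± 7.02 TPM, difference −0.19, SE 0.05). That difference was −0.07 when TPM was rescaled without the mitochondrially encoded genes. Oaz2 stood at 137.6, 127.7 and 126.4 TPM in WT and at 132.9, 136.2 and 116.2 TPM in mKO, and the groups overlapped (difference −0.03, SE 0.07). Azin1 stood at 28.2, 23.6 and 22.5 TPM in WT and at 22.5, 26.9 and 24.3 TPM in mKO, also overlapping (difference −0.01, SE 0.10).

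In all, 3 of the 10 genes were lower in every mKO library than in every WT library, where 10.3% of the 12301 tested genes were. The fit over all tested genes (limma, Benjamini-Hochberg adjusted p under 0.05) called 2 of the 10, Smox and Amd1, both lower, and 0 higher. It called 0.520% of all tested genes, and 0.423% as lower. The comparison chose the set, so nothing is read from these counts. The median difference of the 10 was −0.09, beside −0.01 over all tested genes. For the 7 genes with overlapping groups, differences lay between −0.10 and 0.01, and their 95% intervals lay within −0.29 to 0.22.

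**Figure D2:**
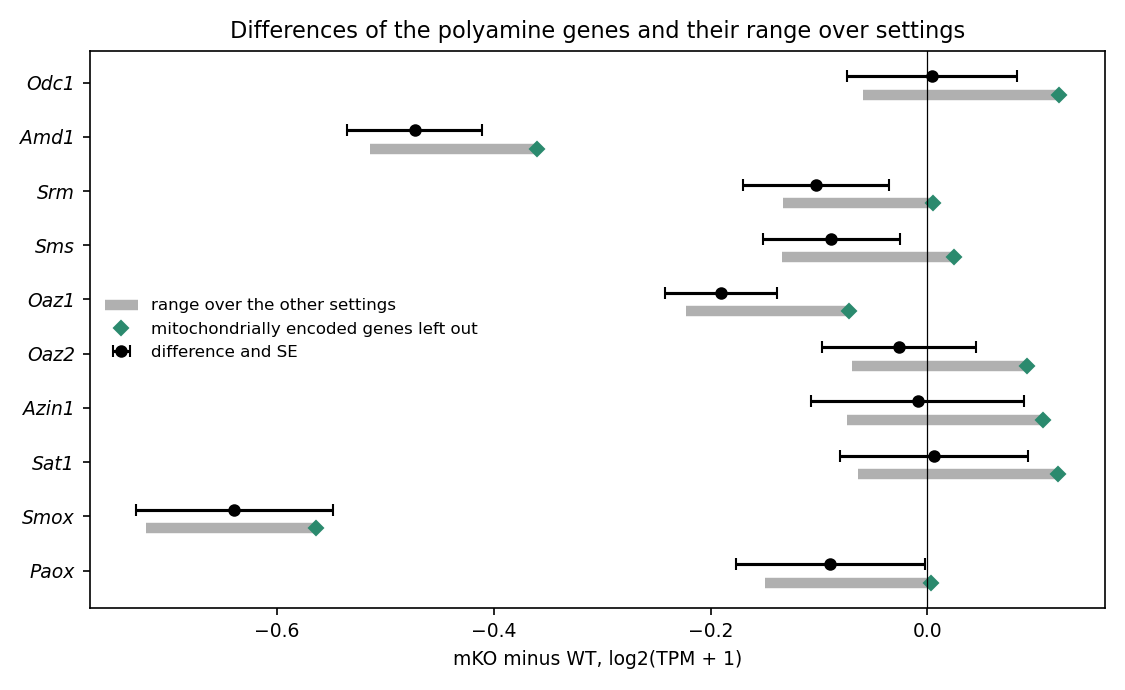
Difference between mKO and WT in log2(TPM + 1) for the 10 genes, as black points with SE whiskers; grey bars span the values under the other settings and green diamonds mark the setting with mitochondrially encoded genes left out. Smox stays at or below −0.56 and Amd1 at or below −0.36, and Odc1, Srm, Sms, Oaz2, Azin1, Sat1 and Paox have ranges that cross 0.

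Smox lay between −0.72 and −0.56 over the 13 other settings, and Amd1 between −0.51 and −0.36 over 12. Both smallest sizes came with mitochondrially encoded genes left out, where the median of all tested genes moved from −0.01 to 0.09. In that setting neither was among the genes called by limma. Oaz1 lay between −0.22 and −0.07, and the remaining 7 genes changed sign in at least 1 setting.

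The order of the levels per length was the same in all WT libraries, namely Oaz1, Oaz2, Amd1, Odc1, Azin1, Sms, Sat1, Srm, Smox and Paox. The WT ranges of neighbours in this order did not touch, except for Srm (10.8 ± 0.475 TPM) and Smox (10.1 ± 0.624 TPM), which overlapped. In all mKO libraries the order was again the same, with Amd1 and Odc1 exchanged. The 10 genes together summed to 584 ± 23.5 TPM in WT and to 526 ± 18.6 TPM in mKO. The 4 genes of synthesis (Odc1, Amd1, Srm and Sms) summed to 145 ± 4.19 and 125 ± 3.31 TPM, and Amd1 made up most of that difference.

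Ratios of genes within a library do not depend on the fixed sum of TPM. Smox over Paox, the 2 oxidases, was 2.50, 2.71 and 2.74 in WT and 1.66, 1.78 and 1.78 in mKO. Sat1 over Smox was 1.78, 1.46 and 1.43 in WT and 2.74, 2.50 and 2.47 in mKO. The groups were apart for both. Smox was chosen for its values in this comparison, so nothing is read from that separation. Odc1 over Amd1 was 0.953, 0.820 and 0.706 in WT and 1.13, 1.20 and 1.12 in mKO, again apart. Azin1 over Odc1 was 0.478 ± 0.0106 in WT and 0.475 ± 0.0342 in mKO, and Srm over Sms was 0.542 ± 0.0125 and 0.535 ± 0.0224, both overlapping. Oaz1 over Oaz2 was 1.912, 2.0004 and 1.916 in WT and 1.64, 1.69 and 1.88 in mKO, with the groups apart by a narrow margin at mKO replicate 3. Amd1 over Smox, the pair with the largest differences, was 6.21 ± 0.423 in WT and 7.37 ± 1.03 in mKO and overlapped. A ratio shows unequal change of its 2 genes and not which of them changed.

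**Figure D3:**
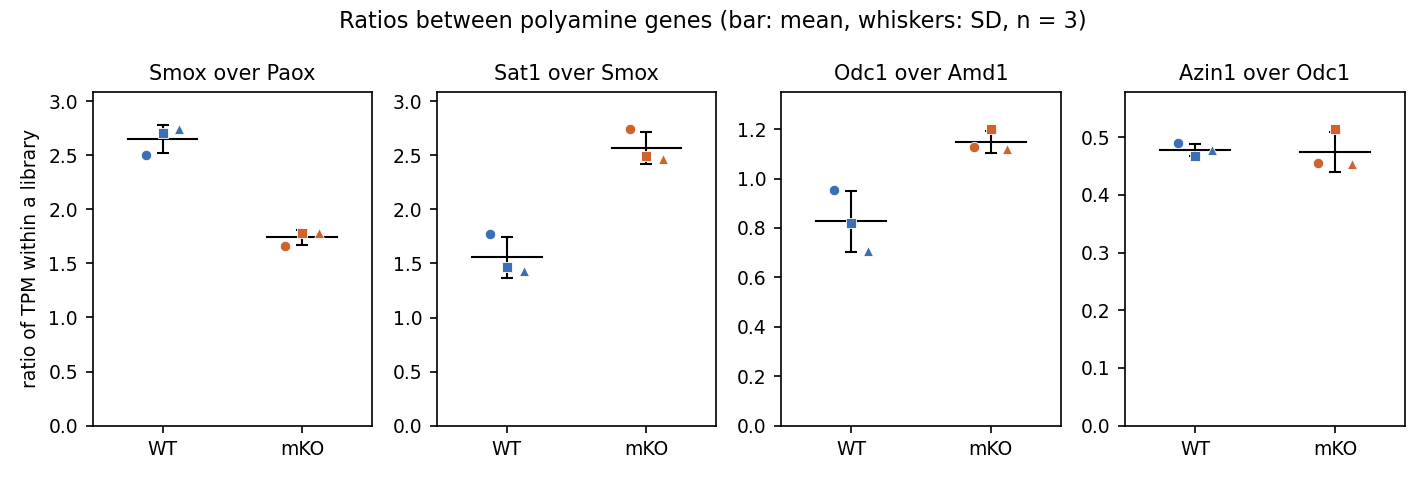
Ratios of TPM between pairs of polyamine genes within each library, with points for libraries, bars for means and whiskers for SDs (n = 3), on linear axes that start at 0. Smox over Paox has a mean of 2.65 in WT and 1.74 in mKO, Sat1 over Smox 1.56 and 2.57, Odc1 over Amd1 0.826 and 1.15, and Azin1 over Odc1 overlaps.

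The promoters of Smox and Amd1 were read because these genes had the largest differences. RefSeq windows, from 250 bases before to 50 bases after a gene's start in GRCm38.p6, were matched for 8 of the 10 genes, and not for Srm and Azin1. They were searched on both strands for the GC box (GGGCGG), for the CCAAT box by those letters, for the TATA box (TATAAA) and for the E-box (CACGTG), none of which contains another. A stretch of 110 bases in no annotated exon is printed for each, 5′ to 3′ along the gene, with matches in capitals. It ends 98 bases before the RefSeq start of Smox and directly before that of Amd1.
Smox, chr2:131491654-131491763, plus strand: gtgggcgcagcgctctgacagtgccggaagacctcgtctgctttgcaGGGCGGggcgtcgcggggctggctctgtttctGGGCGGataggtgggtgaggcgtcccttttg
Amd1, chr10:40302189-40302298, minus strand: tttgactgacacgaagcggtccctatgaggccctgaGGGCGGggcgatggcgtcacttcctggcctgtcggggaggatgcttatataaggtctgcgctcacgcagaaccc
The Smox stretch holds 2 GC boxes and its whole window 6, and Amd1 holds 1 in its window. Of the other matched members, Odc1 and Oaz2 hold 4, Paox 3 in each of its windows and Sat1 2. Sms holds 4 in 1 window and 0 in another, and Oaz1 holds 0. The GC box is thus not particular to Smox and Amd1. GGGCGG is in 35.7% of all 32851 windows. CACGTG is in 7.2% of windows, and among the members in a window of Sms alone. Neither TATAAA nor CCAAT is in the window of either gene, which says only that these exact letters are not there. The printed Amd1 stretch holds tatataag near its end, a TATA-like run that the exact search did not count. No lack of a TATA box is therefore read from the search.

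The 4 tested genes whose pattern over the 6 libraries was most like that of Smox were Ppp1r14c, Hr, Pam16l and Prkag3, predicted genes aside. Likeness was the root mean square difference from Smox in log2(TPM + 1) after subtracting each gene's WT mean, from 0.0763 for Ppp1r14c to 0.120 for Prkag3. This measure takes in the comparison of the groups, so it describes the libraries and carries no test. Ppp1r14c, which encodes an inhibitor of protein phosphatase 1, stood at 40.4, 42.2 and 39.9 TPM in WT and at 27.0, 29.6 and 25.6 TPM in mKO. Hr encodes the corepressor hairless, at 12.3 ± 0.812 TPM in WT and 8.02 ± 2.04 in mKO. Pam16l had 45.7 ± 3.45 TPM in WT and 29.2 ± 5.73 in mKO.

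Prkag3, a regulatory subunit of AMP-activated kinase found mainly in fast muscle, stood at 7.32 ± 0.445 and 4.44 ± 0.522 TPM. Every mKO library lay below every WT library for each of these 4 genes, where 10.3% of all tested genes had that order. The 4 were chosen for likeness to Smox in these same libraries, so nothing is read from it. Among the polyamine genes Amd1 was the nearest to Smox, with a root mean square difference of 0.169, the 25th smallest of all tested genes. Oaz1 came next at 0.330 and Odc1 last at 0.477.

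**Figure D4:**
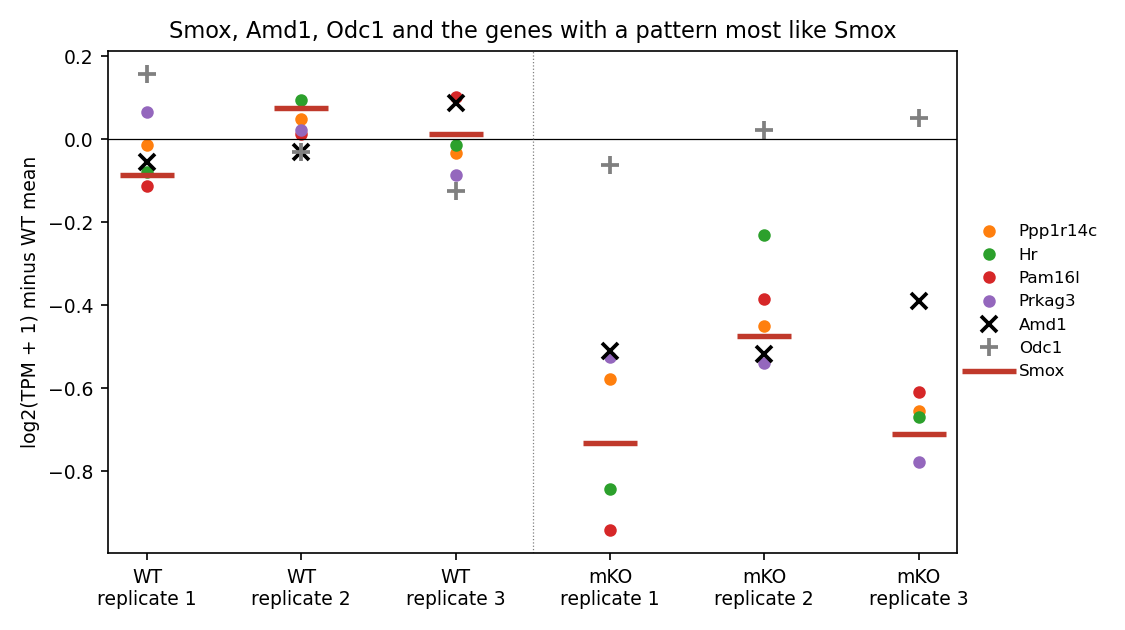
Log2(TPM + 1) minus the WT mean of the same gene in each of the 6 libraries, for Smox (red bar), Amd1 (cross), Odc1 (plus) and the 4 genes with the most similar pattern (coloured points). The 4 genes and Amd1 lie below 0 in the 3 mKO libraries, as Smox does, while Odc1 lies on both sides of 0 in each group.

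Genes around the pathway were read from the same fit, from lists of 55 genes that supply it, carry polyamines or use them. Of these, 40 passed the filter, and limma called 0 in either direction, against 0.520% of all tested genes. At an unadjusted p under 0.05 there were 5 of the 40 (Ass1, Atp13a2, Gpc1, Nos1 and Oat), where 10.7% of all tested genes were, and limma-voom on recovered reads called 0. The median difference was −0.01, with 17 genes above 0 and 23 below.

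Oat, the mitochondrial enzyme that links ornithine to glutamate, averaged 114 ± 3.72 TPM in WT against 105 ± 2.02 in mKO (adjusted p = 0.428), the highest of 9 tested genes of ornithine and arginine supply. Nos3, endothelial nitric oxide synthase, stood at 13.3 ± 0.332 and 13.0 ± 1.86 TPM (adjusted p = 0.937). Nos1, the neuronal type of the enzyme, present at the muscle membrane, had the largest difference of the 40, from 11.7 ± 0.840 to 7.54 ± 2.55 TPM (−0.62, SE 0.18, adjusted p = 0.258), and was singled out after its values were seen. Without mKO replicate 3 limma called it, the only setting of 13 in which a gene of these lists was called. The arginases Arg1 and Arg2 did not pass the filter, and Arg2 was listed at 0 in all libraries.

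Mat2a, which makes S-adenosylmethionine, the substrate of Amd1, stood at 78.4 ± 3.32 and 75.4 ± 6.13 TPM (adjusted p = 0.835). Apip, of the methionine salvage route that recycles the by-product of both synthases, stood at 44.0 ± 1.27 and 45.3 ± 3.58 TPM (adjusted p = 0.898). All 12 tested genes of this list lay between −0.13 and 0.12. Of transport genes, Cav1 stood at 142 ± 9.73 and 133 ± 5.78 TPM (adjusted p = 0.678) and Gpc1, a proteoglycan implicated in polyamine uptake, at 111 ± 6.08 and 99.8 ± 3.86 TPM (adjusted p = 0.423). The 9 tested transport genes lay between −0.22 and 0.16.

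Of the other genes of acetylation and amine oxidation, 6 were tested. Aldh2, a mitochondrial aldehyde dehydrogenase, stood at 111 ± 3.48 and 108 ± 5.75 TPM (adjusted p = 0.857), and Maob, a monoamine oxidase, at 15.6 ± 1.34 and 15.5 ± 1.02 TPM (adjusted p = 0.987). Spermidine is used to form hypusine, a modified residue found in the translation factor eIF5A. Eif5a stood at 215 ± 6.09 and 210.1 ± 6.75 TPM (adjusted p = 0.858), and Dohh, which completes hypusine, at 30.1 ± 1.25 and 27.9 ± 1.49 TPM (adjusted p = 0.605). The further antizyme and inhibitor genes, Oaz3 and Azin2, did not pass the filter, at means of at most 0.0209 and 0.920 TPM.

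**Figure D5:**
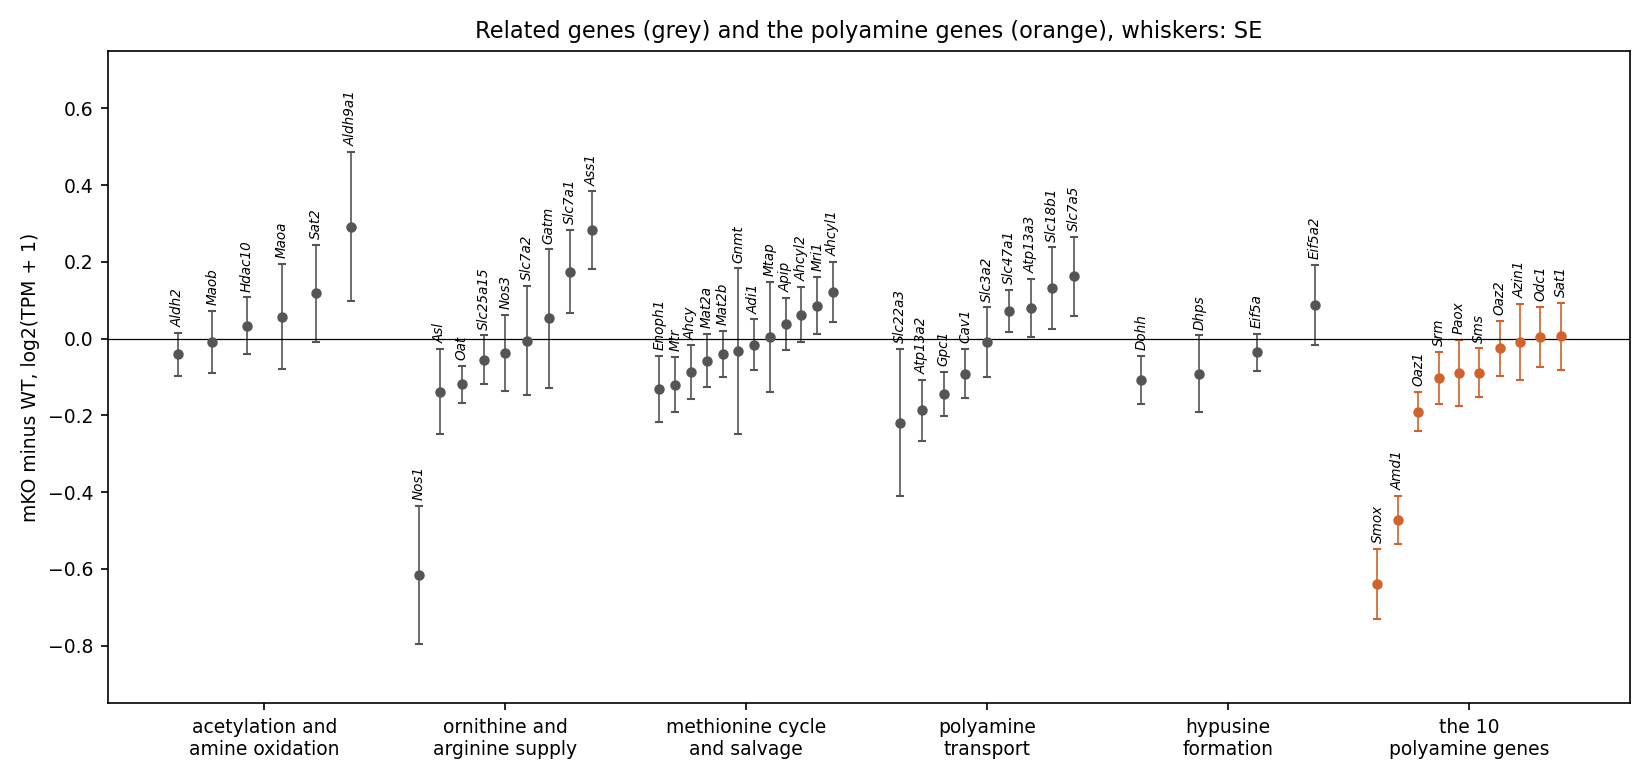
Difference between mKO and WT in log2(TPM + 1) with SE whiskers for the 40 tested genes of 5 related lists (grey) and for the 10 polyamine genes (orange). Smox, Nos1 and Amd1 lie lowest, at −0.64, −0.62 and −0.47, and every other gene lies between −0.22 and 0.29.

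Fast fibre markers were lower in the same libraries as Smox and Amd1. Of 18 fast fibre genes tested, limma called 9 lower and 0 higher, where it called 0.423% of all tested genes as lower. All 18 had an unadjusted p under 0.05, against 10.7% of all tested genes, and limma-voom called 13. None of the 18 was at 0, and their summed level was 51615 to 58498 TPM in WT and 31290 to 39976 TPM in mKO. Of 15 slow fibre genes, 1 was called, higher, 4 had an unadjusted p under 0.05, and limma-voom called 1. The slow fibre sums overlapped (31063 to 35711 TPM in WT and 31554 to 40675 TPM in mKO). The part of fibre type in the lower Smox and Amd1 was not tested. Of 68 tested genes in 8 lists of denervation and atrophy, macrophages, fibroblasts, endothelium, satellite cells, adipocytes, Schwann cells and handling stress, limma called 0. At an unadjusted p under 0.05 there were 11 of the 68, where 10.7% of all tested genes were. They were 4 of 14 genes of denervation and atrophy, 3 of 9 of fibroblasts and 4 of 10 of handling stress. Limma-voom called 0, and the summed levels of all 8 lists overlapped between the groups. Among the mKO libraries replicate 3 had the highest Stard7 and the highest fast fibre sum, with Smox at 5.80 TPM, close to the lowest, and Amd1 at 47.7 TPM, the highest of the group.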

How the data were processed

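RNA of 3 WT and 3 mKO soleus samples was measured by poly(A) RNA-seq. The authors deposited TPM values, 1 table per library, each with a sum of 1000000. Per the submitters' processing notes they used GRCm39. The aligner, the counter and whether strand was used in counting: not given in the sources used here. Sequences and gene lengths came from GRCm38 (GENCODE M21 and RefSeq), so no gene coordinates of the files are given.

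Limma-trend (limma 3.58.1, R 4.3.3) was fitted to log2(TPM + 1) of the 12301 genes that reached 1 TPM in 3 or more libraries, with genotype as the only term and Benjamini-Hochberg adjustment over all of them. This scale understates changes of low genes. The design text gives 3 mice per group but ties no library to a mouse, so p-values measure the spread between these samples, which may be technical. TPM times exon length gave whole reads (within 0.05) in all libraries for 93.1% of 22729 genes, including 9 of the 10 members and not Amd1; counting errors take reads as independent. The test was checked on simulated reads. The members and gene lists were chosen with earlier results of these data known. The text names all members, the genes called in the related lists or else their 2 most abundant tested genes, the genes most like Smox (5 by the rule, of which 1 is not reported here), and Stard7. Amd2, Nos1, Acta1, Ckm, Myh1, Myh2, Myh4, Myh7 and the ratios were taken up outside that rule, after values were seen. Alternatives were other filters on low values, a pseudocount of 0.1, rescaling without mitochondrially encoded genes or by median of ratios, a replicate block, each library dropped in turn, and limma-voom on the recovered reads.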

Additional observations from a re-analysis of the deposited data

How the results depend on the processing

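Main values were 64 genes called, 2 polyamine genes called, 0 related genes called and −1.83 for Stard7. With no filter on low values, 6 genes were called over 24964 tested, 0 of them polyamine genes (3 at an unadjusted p under 0.05, where 7.62% of all tested genes were), and Stard7 at −1.83 was not called. With mitochondrially encoded genes left out, 41 genes and 0 polyamine genes were called (2 unadjusted, beside 19.3% of all genes), and 51.2% of calls were higher in place of 18.8%. Median of ratios scaling called 48 of 12310 tested genes, and 1 of the 10 (Smox, 3 unadjusted, beside 11.2% of all genes). Limma-voom called 92 of 11204 tested genes, with 38.04% of the calls higher. Of the polyamine genes it called 1 (Smox, 2 unadjusted, beside 11.5% of all genes), and Amd1 could not be fitted. With a replicate block 21 of 12301 genes were called, and 1 of the 10 (Amd1, 3 unadjusted, beside 12.5% of all genes). Same-numbered libraries correlated at 0.0950, 0.0474 and 0.131 in their deviations, and differently numbered ones at −0.0929 to 0.00064. Each library thus correlated best with its own number. Whether same-numbered libraries shared a batch or were paired was not tested, and the main fit takes no account of it. Leaving out each library gave 4 to 94 genes called, 0 to 1 polyamine genes, 0 to 1 related genes, Stard7 at −2.05 to −1.72 and Smox at −0.72 to −0.59. Limma called none of the 10 without WT replicate 1, 2 or 3 or mKO replicate 1 (3 unadjusted in each, beside 7.14% to 10.9% of all genes). Of the 10 it called Smox alone without mKO replicate 2, where 26 of 12155 tested genes were called. It called Amd1 alone without mKO replicate 3, where 94 of 12194 were called. Why the calls differed between settings was not tested. No called value changed sign. Reads of 305 to 874 per library limit Srm, Paox and Smox.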
